A study of Rattus norvegicus with 4 samples.

Results

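The potassium channel gene family was taken as every rat gene on the array whose symbol starts with Kcn, found through the accession that the scanner files give for each probe. One inward rectifier gene was left out. This gave 90 genes, represented by 121 probes, of 26650 genes on the array in all. Of these, 88 genes with 115 probes passed the filter on dim probes and were measured. They were set among 22817 genes, of which 13936 had a symbol and the rest were counted by accession. The set holds the pore-forming subunits of the voltage-gated (39 genes with the electrically silent ones), inward rectifier (12), tandem-pore (13) and calcium- or sodium-activated channels, and their auxiliary subunits (16).

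The RNA came from the spinal dorsal horn, the part of the cord where sensory fibres end, of male rats aged 6 weeks. The labels describe 4 Agilent 2-colour arrays: 2 of rats given oxaliplatin, a platinum chemotherapy drug known for a painful neuropathy, and 2 of rats given vehicle, all on day 10. Per the labels the Cy3 channel of each array held RNA of untreated male rats of the same age, and the Cy5 channel RNA of the array's own treated rats. Dose and strain are not given in the sources used here, nor is whether an array held 1 rat or a pool. The labels call the arrays biological replicates, and the p-values measure only the spread between them.

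Potassium channels let potassium leave the cell, which brings the membrane back to rest after an action potential and sets how readily a neuron fires. Voltage-gated members open on depolarisation, inward rectifiers and tandem-pore members hold the resting potential, and calcium-activated members shape the after-hyperpolarisation. In the dorsal horn and in the sensory fibres that end there they set the excitability of pain pathways, and glial members clear potassium from around neurons.

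Cy5 was well above background for 82.6% to 85.4% of probes per array. For Cy3 oxaliplatin replicate 2 had the lowest share, 76.8%, and the remaining 3 arrays had 83.1% to 88.1%. Its median Cy3 signal of 283.5 lay below the 494 to 564 of those 3, so this library stood apart in Cy3. The 2 oxaliplatin arrays shared a slide and the 2 vehicle arrays shared another, so slide and treatment cannot be told apart. Dyes were not swapped, so a dye effect and a difference between the RNAs of an array cannot be told apart. The extract protocol names Cy3 labelling only. If the dyes were the other way round, every sign below would have to be read the other way.

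The tissue label was set against markers. Dorsal horn markers (7 measured of 8 listed) were above background on all 4 arrays in both channels, with a median log2 Cy5/Cy3 ratio of 0.0041. That list was split, with 4 of 7 higher in Cy5 and mean ratios from -1.30 (Slc6a5) to 1.00 (Tac1). Genes of sensory ganglion neurons, whose cell bodies lie outside the cord, had a median ratio of 3.90, with all 10 measured of 12 listed higher in Cy5. Forebrain markers had a median ratio of 2.46, with 7 of 7 measured higher in Cy5. The median of the forebrain list was 2.50 and 2.30 on the oxaliplatin and 2.43 and 2.63 on the vehicle arrays. Oligodendrocyte markers had a median of -1.48 (0 of 6 higher), astrocyte markers -0.999 (1 of 6) and Hox genes of cord position -0.75 (0 of 3). The Cy5 channel thus carried transcripts that mark tissues other than the labelled one on both the oxaliplatin and the vehicle arrays. In bulk RNA, fewer cells of a type and less RNA per cell cannot be told apart.

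In the comparison of oxaliplatin with vehicle, none of the 88 potassium channel genes passed the test (limma, Benjamini-Hochberg over all genes), and nor did any of the 22817 genes (0%). At an unadjusted p under 0.05 there were 17 members, beside 14.6% of all genes. The smallest adjusted p among members was 0.295. Leaving out oxaliplatin replicate 1 let 6 members pass, or 6.82%, beside 4.94% of all genes, while leaving out any other array let none pass. The difference is the mean log2 Cy5/Cy3 of the oxaliplatin group less that of the vehicle group, and was above 0 for 38 members and below 0 for 50. Its median was -0.024 (log2) over the members and 0.0054 over all genes, and its SD over genes was 0.26 and 0.25. Leaving out oxaliplatin replicate 1 moved the median to -0.10, and leaving out oxaliplatin replicate 2 moved it to 0.029. Without oxaliplatin replicate 1, that group was oxaliplatin replicate 2 alone, the array with the lowest median Cy3 signal (283.5). The 2 groups of ratios did not overlap for 41 members, a share of 46.6%, beside 49.2% of all genes. Of these 41, 16 were higher on the oxaliplatin arrays (27% of all genes) and 25 lower (22.2% of all genes). For 5 members, or 5.68%, the ratios of one group were both above 0 and those of the other both below, beside 6.07% of all genes.

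Between the channels of an array the family spread widely. The Cy5/Cy3 ratio over the 4 arrays was called higher than 0 for 46 members (29.3% of all genes) and lower for 19 (26.3% of all genes), and 23 passed in neither direction. A log2 ratio above 1 was found for 21 members, or 23.9%, beside 3.59% of all genes. A ratio below -1 was found for 5 members, or 5.68%, beside 1.07%. The SD of the ratio over the members was 1.00, against 0.52 over all genes, and the medians were 0.23 and 0.029. On the single arrays the members' median was 0.21 and 0.20 for oxaliplatin and 0.30 and 0.27 for vehicle. The call held under every other setting that measured the gene for 36 of the 46 higher and 14 of the 19 lower members.

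**Figure D1:**
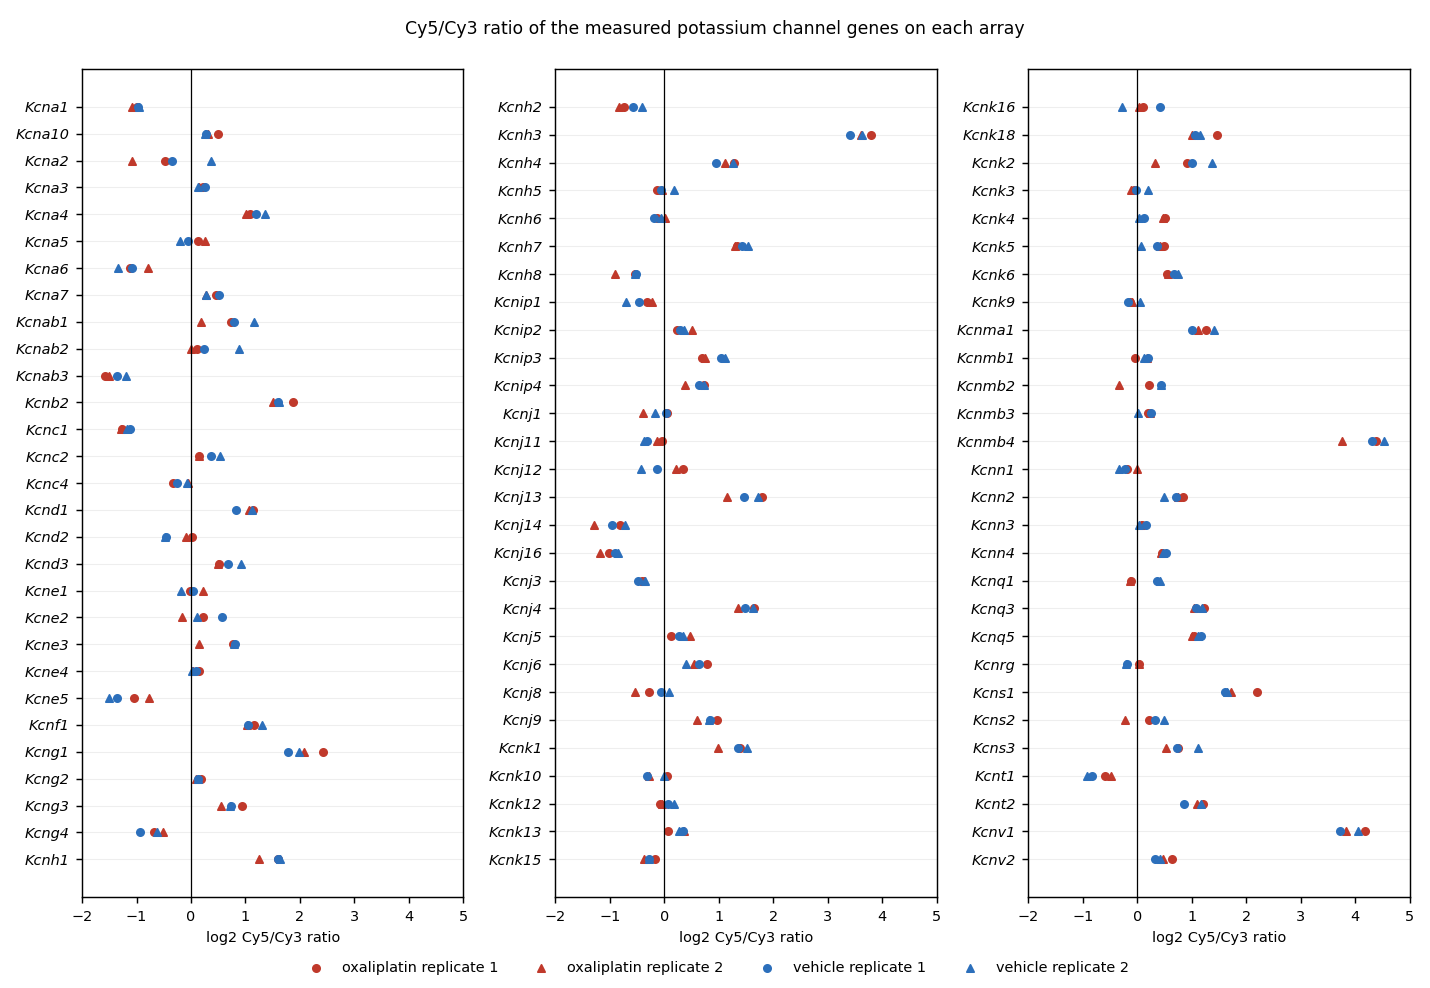
Log2 Cy5/Cy3 ratio (x axis) of 85 of the measured potassium channel genes (y axis) on each of the 4 arrays. Each point is 1 array, with colour for the group and shape for the replicate. For most genes the 4 points lie close together compared with the distance between genes, and Kcnmb4, Kcnv1 and Kcnh3 lie far to the right at ratios of 3.41 to 4.53.

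The members at the ends of this order are shown with the 250 bases before their start in RefSeq (build GRCr8), 5′ to 3′ on the gene's strand, to let the sequence be read beside the ratio. Promoters were in the table for 61 of the 90 genes of the family, so Kcnv1, Kcnh3 and Kcng1 are not shown. Capitals mark the GC box (GGGCGG, or its reverse complement), the site that Sp-family factors recognise.

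Kcnmb4, chr7:54005102-54005351, minus strand: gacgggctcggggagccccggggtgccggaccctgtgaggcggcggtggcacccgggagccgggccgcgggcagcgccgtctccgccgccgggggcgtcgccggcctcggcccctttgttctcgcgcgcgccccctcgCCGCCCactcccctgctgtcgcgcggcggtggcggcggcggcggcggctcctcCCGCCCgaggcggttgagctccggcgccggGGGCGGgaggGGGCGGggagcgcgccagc

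Kcns1, chr3:173262347-173262596, minus strand: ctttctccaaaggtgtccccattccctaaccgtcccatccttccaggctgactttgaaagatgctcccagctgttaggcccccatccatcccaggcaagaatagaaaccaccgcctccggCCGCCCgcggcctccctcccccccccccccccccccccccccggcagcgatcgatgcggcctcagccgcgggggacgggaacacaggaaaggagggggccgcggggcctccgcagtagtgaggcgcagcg

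Kcnab3, chr10:54546388-54546637, plus strand: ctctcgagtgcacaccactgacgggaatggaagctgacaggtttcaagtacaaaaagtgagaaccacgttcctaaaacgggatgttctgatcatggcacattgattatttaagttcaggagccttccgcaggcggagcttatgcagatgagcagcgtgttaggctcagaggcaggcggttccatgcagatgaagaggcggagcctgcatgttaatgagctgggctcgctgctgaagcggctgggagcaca

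Kcnc1, chr1:106038997-106039246, plus strand: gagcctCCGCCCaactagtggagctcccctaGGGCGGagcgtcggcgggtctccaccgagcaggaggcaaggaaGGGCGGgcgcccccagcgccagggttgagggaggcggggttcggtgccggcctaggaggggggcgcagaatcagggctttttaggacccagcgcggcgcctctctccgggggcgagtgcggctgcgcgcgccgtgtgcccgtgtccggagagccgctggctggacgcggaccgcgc

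Kcnmb4 and Kcns1 had high Cy5/Cy3 ratios, and Kcnab3 and Kcnc1 low ones. Their windows held 84.4%, 68.8%, 52.8% and 74.4% G and C, with 4, 1, 0 and 3 GC boxes. Over the 61 genes the median was 60.8% G and C, beside 51.2% over the 33469 promoters in the table, and 12 CG dinucleotides beside 5. A GC box on either strand stood before 30 of 61 genes (49.2%), beside 30.5% of all promoters. TATAAA on either strand stood before 2 of 61 (3.28%), Kcnj1 and Kcnj13, beside 12.9%. The right part of the site of the repressor REST (GGACAGC, either strand) stood before 7 of 61 (11.5%), beside 5.3%, and the left part (TTCAGCACC) before 1, Kcnh6, beside 0.305%. A member gene counted where any of its promoters matched (67 entries for the 61 genes), while the shares of all were taken per promoter. The units thus differ. These are matches of letters in a short window. No relation of the motifs to the ratios was tested.

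Kcna genes encode the Shaker-type channels, low-threshold rectifiers that sit along axons, and Kcnab genes their cytoplasmic beta subunits. Of 8 Kcna genes, 4 were called higher in Cy5 over Cy3 and 2 lower (29.3% and 26.3% of all genes). Kcna1, an axonal channel, had log2 ratios of -0.98 and -1.09 on the oxaliplatin and -0.98 and -0.95 on the vehicle arrays. Its Cy5 signal was 14.36 to 14.53 and its Cy3 signal 15.39 to 15.45 (log2), so both were steady over the arrays. Kcna4, which gives a fast-inactivating current, had ratios of 1.09 and 1.00 on the oxaliplatin and 1.18 and 1.36 on the vehicle arrays, the opposite side of 0 from Kcna1. The brightest probe of Kcna6 had a mean ratio of -1.08, while its other probe had 0.03.

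Kcna2, the usual partner of Kcna1 in axons, had the lowest difference of all members. Its ratio was -0.48 and -1.07 on the oxaliplatin arrays and -0.35 and 0.37 on the vehicle arrays. The groups did not overlap, and the difference was -0.79 ± 0.28 (SE, n = 2 arrays per group), with an adjusted p of 0.308 in limma. The Cy5 signal of Kcna2 stayed between 12.42 and 12.51 on all 4 arrays. The Cy3 signal, labelled as untreated rats, was 12.92 and 13.54 on the oxaliplatin and 12.87 and 12.08 on the vehicle arrays. The difference in the Kcna2 ratio thus lay in Cy3. Leaving out vehicle replicate 2 gave a difference of -0.43, and leaving out vehicle replicate 1 gave -1.14. Kcna5, a delayed rectifier, had ratios of 0.13 and 0.26 on the oxaliplatin and -0.05 and -0.19 on the vehicle arrays, a difference of 0.32 ± 0.12.

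All 3 Kcnab genes had lower ratios on both oxaliplatin arrays than on both vehicle arrays, as 22.2% of all genes did. Kcnab1 had 0.74 and 0.18 against 0.80 and 1.16, a difference of -0.52 ± 0.21 (adjusted p 0.337), and its second probe -0.28. Its Cy3 signal was 13.47 and 14.11 on the oxaliplatin and 13.17 and 12.83 on the vehicle arrays. Kcnab2 differed by -0.51 ± 0.21 and Kcnab3 by -0.26 ± 0.12. All 3 differences stayed below 0 under the 13 other settings, but their size moved. Kcnab1 was -0.80 without oxaliplatin replicate 1 and -0.24 without oxaliplatin replicate 2. Leaving out vehicle replicate 1 gave -0.82 for Kcnab2, and leaving out vehicle replicate 2 gave -0.19. Kcnab3 was -0.10 with median centring. Kcnab3 also had the lowest Cy5/Cy3 ratio of the family, with -1.57, -1.50, -1.36 and -1.20 on oxaliplatin replicates 1 and 2 and vehicle replicates 1 and 2. Its Cy3 signal exceeded its Cy5 signal 2.66-fold on average (adjusted p 8.15e-06, n = 4 arrays, limma). The 3 Kcnab genes did not share a direction between the channels, since Kcnab1 and Kcnab2 were called higher in Cy5. The Kcnab2 call was lost without oxaliplatin replicate 1 or vehicle replicate 2. It was also lost with the scanner's log ratio and with the authors' value table.

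Kcnb2, a slow delayed rectifier of neuronal cell bodies, was called higher in Cy5. It had ratios of 1.86 and 1.51 on the oxaliplatin and 1.60 and 1.62 on the vehicle arrays, and its groups overlapped. Kcnc genes repolarise fast-firing neurons, and Kcnc1 was called lower. Its ratio was -1.27 and -1.28 on the oxaliplatin and -1.11 and -1.18 on the vehicle arrays. Kcnc2 was called higher in Cy5, with 0.15 and 0.14 on the oxaliplatin and 0.37 and 0.54 on the vehicle arrays. That call was lost without vehicle replicate 2 and with the mean over probes. Both channels of the brightest Kcnc2 probe were brighter on the oxaliplatin arrays, by 0.59 in Cy5 and 0.91 in Cy3 (log2). The second probe of Kcnc2, to another transcript, went the other way, by -0.12 in Cy5 and -0.10 in Cy3. Its difference in the ratio was 0.0030.

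Kcnd genes give the A-type current of dendrites, and Kcnip genes encode the calcium-binding proteins that bring Kcnd channels to the membrane. Kcnd2 had ratios of 0.02 and -0.08 on the oxaliplatin and -0.46 and -0.47 on the vehicle arrays. Its groups did not overlap, and the difference was 0.43 ± 0.11 (adjusted p 0.295), with 0.12 from its second probe. The mean ratio of Kcnd2 was called lower than 0, a direction that turned to 0.11 with median centring of the arrays. The call was also lost without either vehicle array and with the mean over probes. Kcnd3 differed the other way, by -0.30 ± 0.13, while its 3 other probes gave -0.090 to 0.03. Kcnd1 had a mean ratio of 1.04, with overlapping groups.

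Of the 4 Kcnip genes, 3 were called higher in Cy5 and Kcnip1 lower (29.3% and 26.3% of all genes). Kcnip1 had ratios of -0.31 and -0.22 on the oxaliplatin and -0.46 and -0.71 on the vehicle arrays, a difference of 0.32 ± 0.13. Kcnip3, which also acts as a transcriptional repressor in the dorsal horn, had 0.70 and 0.75 against 1.05 and 1.11. The arrays within each group lay close together, and the difference of Kcnip3 was -0.36 ± 0.11 (adjusted p 0.302). Its Cy5 signal was 10.13 to 10.22 on all arrays, and its Cy3 signal was 9.43 and 9.48 on the oxaliplatin and 9.09 on both vehicle arrays.

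Kcnf, Kcng, Kcns and Kcnv subunits form no channel alone and alter Kcnb channels when they join them. Of these 10 silent subunits, 7 were called higher in Cy5 and 1, Kcng4, lower (29.3% and 26.3% of all genes). Their median ratio was 0.75, beside 0.029 over all genes. Kcnv1 had ratios of 4.19 and 3.84 on the oxaliplatin and 3.71 and 4.05 on the vehicle arrays, which is 15.4-fold on average (adjusted p 6.45e-07, n = 4 arrays, limma). It ranked at place 30 of all 22817 genes. Kcng1 had 2.41 and 2.08 against 1.79 and 1.99, with a difference of 0.36 ± 0.15 and no overlap. The second probe of Kcng1 had a mean ratio of 0.46 and a difference of -0.0054. Kcns1, known from sensory neurons and linked to pain, had ratios of 2.20 and 1.71 on the oxaliplatin and 1.61 and 1.64 on the vehicle arrays. Its groups did not overlap (difference 0.33 ± 0.17), although oxaliplatin replicate 2 was close to the vehicle arrays. Kcns2 went the other way, with 0.21 and -0.23 against 0.33 and 0.50 (difference -0.42 ± 0.17). Neither difference passed the test.

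Kcnh genes encode the ether-a-go-go channels, and 4 of 8 were called higher in Cy5 and 2 lower (29.3% and 26.3% of all genes). Kcnh3, a forebrain member, had ratios of 3.79 and 3.62 on the oxaliplatin and 3.41 and 3.62 on the vehicle arrays. This was 12.2-fold on average (adjusted p 4.02e-07) and place 43 of all genes, while the second probe of Kcnh3 had a mean ratio of 0.80. Kcnh2, the rapid delayed rectifier best known from the heart, had ratios of -0.74, -0.83, -0.58 and -0.41 in the same order of arrays. On vehicle replicate 2 its brightest probe was dim in both channels, with 10.29 in Cy5 and 10.695 in Cy3. On the other 3 arrays that probe had 12.45 to 12.83 in Cy5 and 13.04 to 13.68 in Cy3. The second probe of Kcnh2 showed no such drop, with Cy5 signals of 8.68 to 9.28 and the highest of them on vehicle replicate 2. The drop lay in both channels of 1 array, so the ratio does not show it.

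Kcnq genes carry the M-current, which damps repeated firing, except Kcnq1, a channel of heart and epithelia. Kcnq3 had ratios of 1.22 and 1.03 on the oxaliplatin and 1.08 and 1.19 on the vehicle arrays, and Kcnq5 1.04 and 1.01 against 1.16 and 1.11. Both were called higher in Cy5. Their differences were -0.01 and -0.11 and changed sign under other settings. Kcnq1 had the smallest unadjusted p of the family. Its ratio was -0.12 and -0.14 on the oxaliplatin and 0.36 and 0.41 on the vehicle arrays, a difference of -0.51 ± 0.11 (adjusted p 0.295). The second probe of Kcnq1 gave 0.088, the other direction.

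The signals of Kcnq1 differed between the groups in both channels. Cy5 was 8.52 and 8.34 on the oxaliplatin and 10.04 and 9.62 on the vehicle arrays, and Cy3 was 8.64 and 8.48 against 9.66 and 9.21. The differences were -1.40 in Cy5 and -0.87 in Cy3, and neither passed the test of its channel. In the second probe they were -0.48 and -0.54. The Cy3 channel, labelled as untreated rats on every array, thus also differed for this gene, and slide and group cannot be told apart. Kcne genes encode small partners of Kcnq and other channels. Of 5, 1 was called higher in Cy5 and 1 lower (29.3% and 26.3% of all genes). The latter, Kcne5, had ratios of -1.05 and -0.78 on the oxaliplatin and -1.36 and -1.50 on the vehicle arrays. Its difference was 0.52 ± 0.14 (adjusted p 0.295), and its second probe gave 0.22.

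Kcnj genes encode the inward rectifiers, and of 12 measured, 5 were called higher in Cy5 and 5 lower (29.3% and 26.3% of all genes). Kcnj12, a strong rectifier, had the highest difference of the family. Its ratio was 0.35 and 0.22 on the oxaliplatin and -0.14 and -0.42 on the vehicle arrays, a difference of 0.56 ± 0.14 (adjusted p 0.295). The Cy5 signal of Kcnj12 was 8.72 to 8.98, while Cy3 was 8.37 and 8.56 on the oxaliplatin and 8.95 and 9.40 on the vehicle arrays. The higher ratio thus went with a dimmer Cy3 channel. Kcnj8 and Kcnj11 form the pores of the ATP-sensitive channels, and their groups lay apart in opposite directions. Kcnj8 had -0.29 and -0.53 against -0.05 and 0.09 (difference -0.43 ± 0.13), and Kcnj11 had -0.04 and -0.13 against -0.31 and -0.37 (difference 0.26 ± 0.12). The direction of Kcnj11 turned to -0.014 with median centring.

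Among the G-protein-gated rectifiers, through which opioids quiet dorsal horn neurons, Kcnj3 was called lower in Cy5, with ratios of -0.49 to -0.35. That call turned to a ratio of 0.096 with median centring. Kcnj5, Kcnj6 and Kcnj9 were called higher, Kcnj6 with 0.78 and 0.55 on the oxaliplatin and 0.63 and 0.39 on the vehicle arrays. The Kcnj5 call was lost without vehicle replicate 2, with the scanner's log ratio and with the authors' value table. None of these 4 genes had groups that lay apart. The signal of Kcnj3 on vehicle replicate 2 was dim in both channels (13.27 in Cy5 and 13.59 in Cy3), against 13.98 to 14.19 and 14.35 to 14.67 elsewhere. Kcnj13, known from the choroid plexus and pigment epithelium, and Kcnj4, a rectifier of forebrain neurons, had mean ratios of 1.54 and 1.53. The lowest ratios of the subfamily were those of Kcnj16, a rectifier of glia and kidney, at -0.98 and Kcnj14 at -0.95. Kcnj1, the renal channel, was not well above background in Cy5 on either vehicle array. Its Cy5 signal was at least 1.94-fold higher on the oxaliplatin than on the vehicle arrays (adjusted p 0.154 for Cy5 in limma). Its Cy3 signal was also higher there, by 1.07 (log2). These values come from a probe with 1 spot per array. The other Kcnj1 probe, with 2 spots, was well above background on 0 arrays in either channel. Its differences were -0.011 in Cy5 and 0.014 in Cy3.

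Kcnk genes encode tandem-pore channels, the leak channels that hold the resting potential. Of 13, 7 were called higher in Cy5 and 1, Kcnk15, lower (29.3% and 26.3% of all genes). Kcnk2, which responds to stretch and heat, had ratios of 0.90 and 0.33 on the oxaliplatin and 1.01 and 1.37 on the vehicle arrays, a difference of -0.57 ± 0.22 (adjusted p 0.316). Its other 2 probes gave -0.48 and -0.24, so all 3 probes lay on the same side. The difference of the brightest was -0.86 without oxaliplatin replicate 1 and -0.29 without oxaliplatin replicate 2. Kcnk4, its close relative, differed the other way, with 0.51 and 0.48 against 0.13 and 0.04 (difference 0.41 ± 0.11, adjusted p 0.295). Cy5 of Kcnk4 was 9.03 to 9.34, and Cy3 was 8.58 and 8.57 on the oxaliplatin and 8.97 and 9.31 on the vehicle arrays. Kcnk3, an acid-sensitive channel, had ratios of -0.07, -0.12, -0.02 and 0.20 and was not called. Kcnk18, a channel of sensory neurons, had ratios of 1.46 and 1.00 on the oxaliplatin and 1.05 and 1.16 on the vehicle arrays. The groups overlapped, and the direction of the Kcnk18 difference (0.12 ± 0.17) turned with median centring (-0.12) and was 0.91 with the scanner's log ratio. Kcnk1 had the highest mean ratio of the subfamily at 1.31.

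Kcnma1 is the pore of the large-conductance calcium-activated channel, and Kcnmb genes encode its beta subunits. Kcnmb4, the neuronal beta subunit, had the highest Cy5/Cy3 ratio of the family. It was 4.39 and 3.76 on the oxaliplatin and 4.30 and 4.53 on the vehicle arrays, 18.9-fold on average (adjusted p 9.24e-07, n = 4 arrays, limma) and place 21 of all 22817 genes. Its Cy5 signal was 15.17 to 15.19 on all arrays, and its Cy3 signal ranged from 10.68 to 11.38, with the highest on oxaliplatin replicate 2. The groups of Kcnmb4 overlapped (difference -0.34 ± 0.21). Kcnma1 had ratios of 1.27 and 1.11 against 1.00 and 1.41, with 0.77 and 0.30 as the means of its other probes. Its difference was near 0 for the brightest probe (-0.01 ± 0.16), which had 1 spot per array, and changed sign under 6 of 13 other settings. The other probes of Kcnma1 gave differences of -0.31 and -0.060. Kcnmb2 had 0.21 and -0.33 on the oxaliplatin and 0.44 on both vehicle arrays, a difference of -0.50 ± 0.18 (adjusted p 0.312), while its second probe gave -0.028. Without oxaliplatin replicate 1 the difference was -0.77, and without oxaliplatin replicate 2 it was -0.23. Kcnmb1, Kcnmb2 and Kcnmb3 were not called in Cy5 over Cy3.

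Kcnn genes encode the small- and intermediate-conductance calcium-activated channels. Of 4, 2 were called higher in Cy5 and 1 lower (29.3% and 26.3% of all genes). Kcnn2 had ratios of 0.84 and 0.74 on the oxaliplatin and 0.71 and 0.49 on the vehicle arrays, a difference of 0.19 ± 0.13. Kcnn4, of blood cells, epithelia and microglia, had ratios of 0.45, 0.44, 0.53 and 0.47, and its difference was -0.05 ± 0.11. Kcnt1, a sodium-activated channel, was called lower, with -0.59 and -0.49 against -0.83 and -0.93. Its groups did not overlap, and the difference was 0.35 ± 0.12 (adjusted p 0.306). Kcnt2 was called higher, with a mean ratio of 1.08. Kcnrg, a soluble regulator that hinders channel assembly, had 0.02 on both oxaliplatin and -0.20 and -0.21 on the vehicle arrays.

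**Figure D2:**
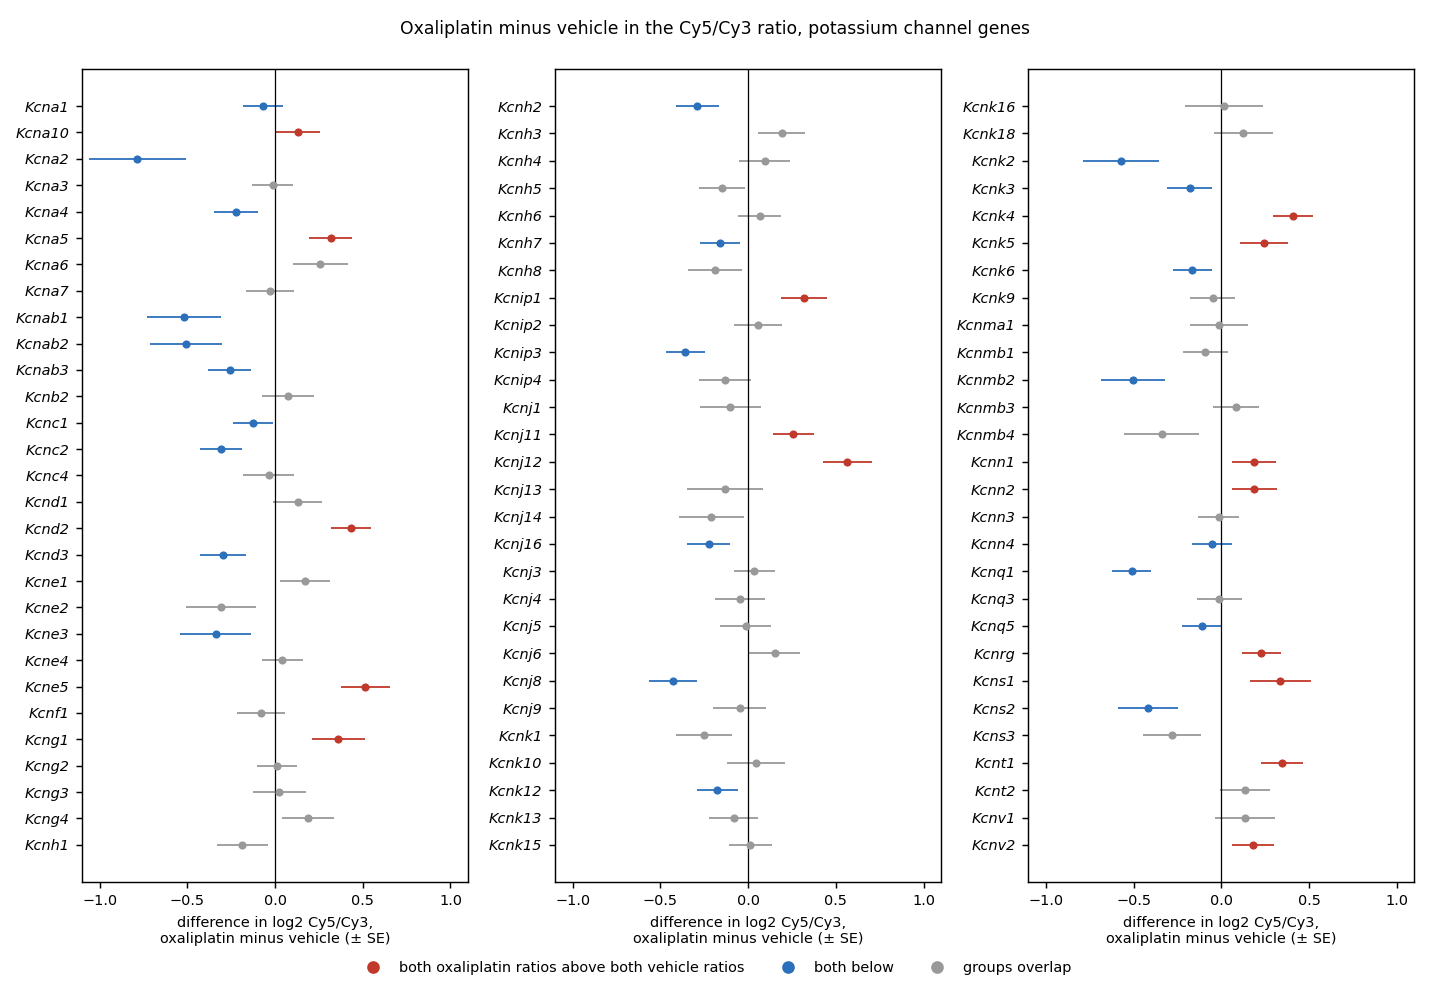
Difference in the log2 Cy5/Cy3 ratio, oxaliplatin minus vehicle arrays (x axis), for the same 85 genes (y axis), with the SE of the limma fit as bars (n = 2 arrays per group). Red and blue mark the 16 and 24 genes shown whose groups do not overlap. Kcna2 lies lowest at -0.79 and Kcnj12 highest at 0.56, and no gene passed the adjusted test.

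Beside the subfamilies, the 16 auxiliary subunits (Kcnab, Kcne, Kcnip, Kcnmb) had a median difference of -0.19, with 2 apart higher and 6 apart lower (50% apart, beside 49.2% of all genes), and a median of -0.056 without oxaliplatin replicate 2 and -0.064 with ratios scaled between arrays. The 39 voltage-gated subunits had a median of -0.02, with 6 apart higher and 12 lower (46.2% apart, near the share of all genes).

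Both channels were then looked at on their own. Oxaliplatin minus vehicle, no member passed the test in Cy5 or in Cy3, and nor did any of all genes (0%). The median difference of the members was -0.06 in Cy5 and -0.0045 in Cy3. Cy5 signals of the groups lay apart for 46 members (59.5% of all genes) and Cy3 signals for 52 (58% of all genes). Over the members, the ratio difference had a correlation of -0.69 with the Cy3 difference and of -0.12 with the Cy5 difference, and the channels had one of 0.80 with each other. These are descriptions over 88 genes that share the 4 arrays. The ratio is made from both channels, so a negative correlation with Cy3 is partly built in. Over all genes the correlations with the Cy3 and the Cy5 difference were -0.66 and -0.18. Of the 41 members whose ratio groups lay apart, 33 had a larger difference in Cy3 than in Cy5. The same count was not made over all genes, so it is not read as a trait of the family. The SD of the signal over the 4 arrays had a median of 0.13 in Cy5 and 0.22 in Cy3, and was smaller in Cy5 for 72 of 88 members (74.3% of all genes).

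**Figure D3:**
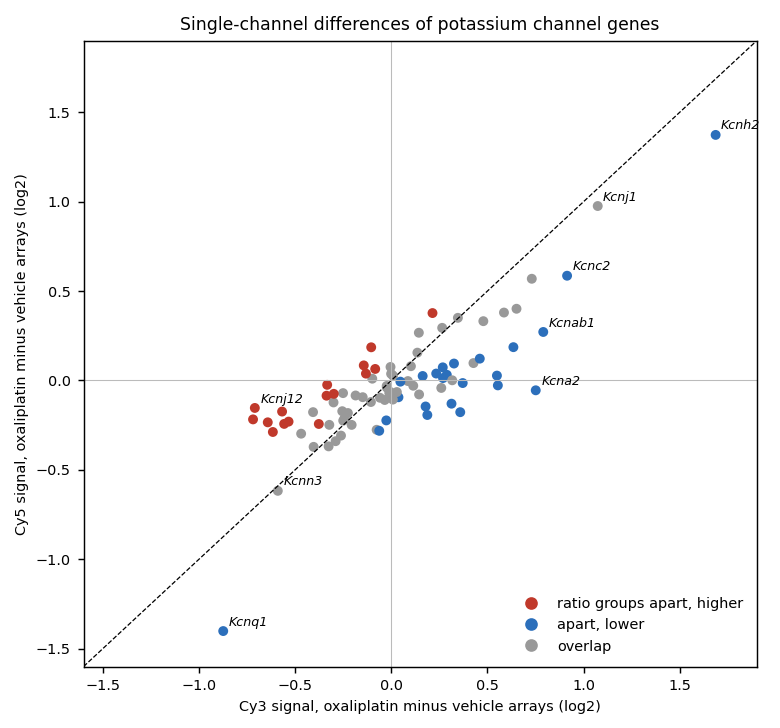
Difference in the log2 signal between oxaliplatin and vehicle arrays in Cy3 (x axis) and Cy5 (y axis), 1 point per measured potassium channel gene, with the dashed line where both are equal. Colours give the ratio groups, which were normalised apart from the single channels. Kcna2 and Kcnj12 lie off the line through Cy3, while Kcnq1 and Kcnh2 lie far out in both channels.

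For 23 members several probes were kept, and they did not always give 1 answer. The sign of the mean ratio differed between probes for 8 of them and the sign of the difference for 11. The probe printed for each gene is the brightest. The second probe of Kcnh2 had a difference of 0.33 and that of Kcnq3 0.21, each on the other side of 0 from the brightest. The second probe of Kcnd2 had a mean ratio of 0.15 and that of Kcnmb2 -0.48, likewise on the other side. For Kcnab1, Kcne5 and Kcnk2 the probes shared the sign of the difference, while for Kcnc2, Kcng1 and Kcnq1 they did not.

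**Figure D4:**
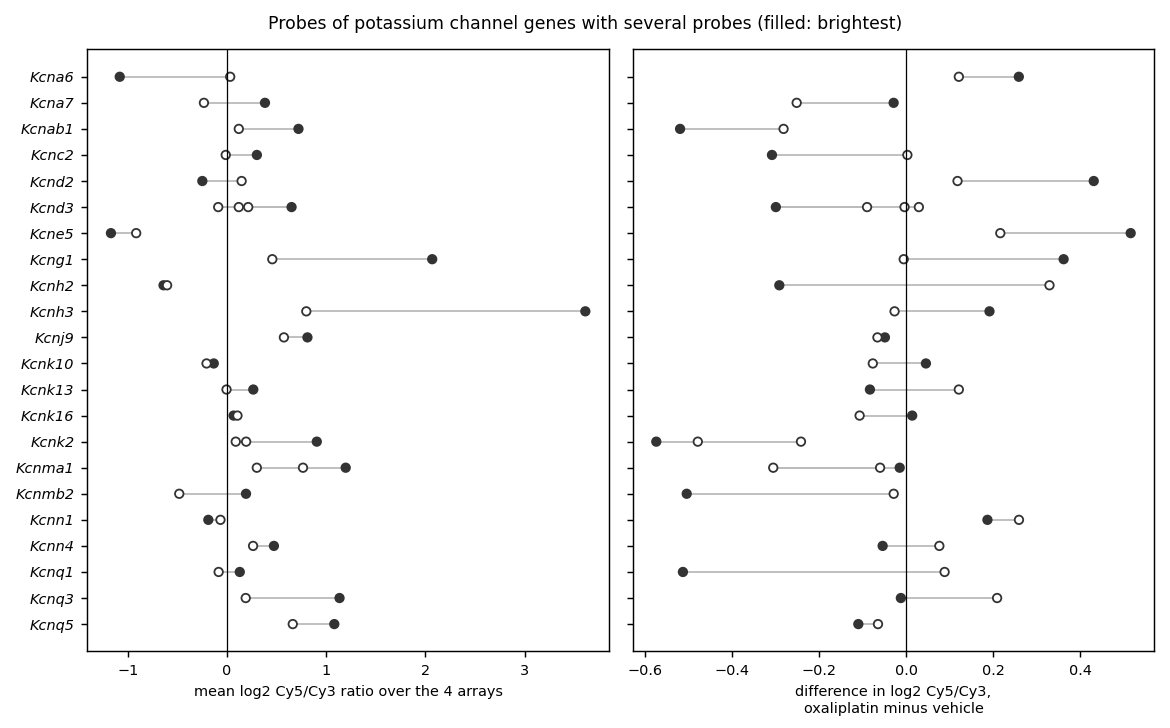
The 22 genes shown with several kept probes (y axis), with the mean log2 Cy5/Cy3 ratio over the 4 arrays (left) and the difference between oxaliplatin and vehicle arrays (right) of each probe. Filled points are the brightest probe, which stands for the gene. The probes of Kcnh3 lie at 3.61 and 0.80 on the left, and those of Kcnq1 at -0.51 and 0.088 on the right.

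The filter asked for Cy5 well above background on at least 2 arrays, so 2 members were not measured. Kcnj15 was well above background on 0 arrays in either channel. Kcnj2, a strong rectifier, was well above background on 0 arrays in Cy5 and 3 in Cy3. Kcna10 was not well above background in Cy3 on either oxaliplatin array, where its Cy5 signal was at least 1.32-fold higher than its Cy3 signal (adjusted p 0.00373 for its Cy5/Cy3 ratio over all arrays, a call lost with median centring). These bounds set the brighter mean against the lowest signal well above background, or the dim probe's own where that was higher.

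Genes that work with potassium channels but bear other names were read from a list of 40, of which 34 were measured. Of these, 14 were called higher in Cy5 over Cy3 (29.3% of all genes), 8 lower (26.3% of all genes), and none passed the test of oxaliplatin against vehicle. Groups lay apart for 10 higher and 8 lower (52.9% apart, beside 49.2% of all genes), and the median difference was -0.07. Stx1a, a syntaxin of the synaptic vesicle machinery that also binds potassium channels, had a mean ratio of 1.65, and Akap5, a kinase anchor of Kcnq channels, 1.59. Dpp10 and Dpp6 are both partners of Kcnd channels and went opposite ways, with 1.07 and -0.35. Cntn2, which holds Kcna channels beside the node of Ranvier, had -0.55. Abcc9, the partner of Kcnj8, had -0.42.

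Signals of the cell type markers were also read by channel and group. For sensory ganglion neurons, 9 of the 10 measured markers were above background on all arrays in each channel. Their summed signal was 171318 to 185680 in Cy5 on the oxaliplatin and 200589 to 206833 on the vehicle arrays. In Cy3 the sums were 8520 to 14422 and 8463 to 13881. Forebrain markers summed to 27985 to 28116 and 26069 to 26339 in Cy5, and to 2245 to 2682 and 2337 to 2463 in Cy3. Oligodendrocyte markers were brighter in Cy3, at 334054 to 353003 and 432641 to 479628, than in Cy5, at 144498 to 163901 and 150012 to 155062. No marker of these 3 lists was below background on every array in either channel. Oligodendrocyte and astrocyte markers also had higher ratios on the oxaliplatin arrays, with median differences of 0.66 and 0.42 and 5 of 6 genes higher in each. Both red cell markers measured had differences above 0 too (median 0.74), but their groups overlapped. Hbb had ratios of 2.78 and 0.35 on the oxaliplatin and 1.25 and 0.085 on the vehicle arrays. The 3 Hox genes of cord position had differences below 0 (median -0.39), but that of Hoxb8 was only -0.016 and its groups overlapped. The part of these markers in the ratios and differences of the potassium channel genes was not tested.

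**Figure D5:**
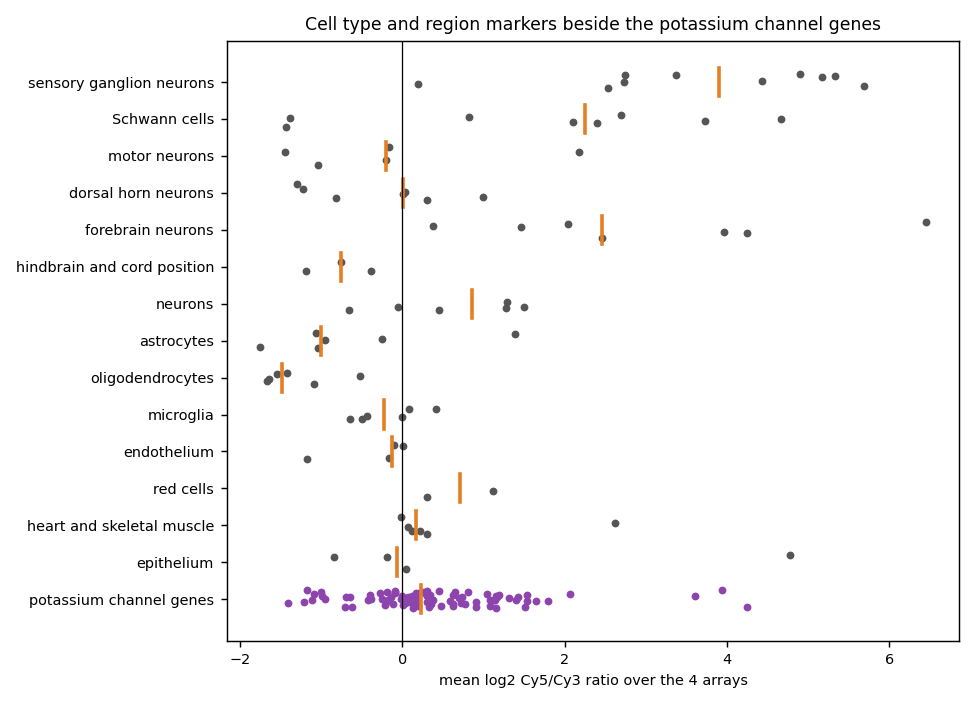
Mean log2 Cy5/Cy3 ratio over the 4 arrays (x axis) of marker genes by cell type or region and of the 88 potassium channel genes (bottom row). Each point is 1 gene and each orange bar the median of its list. Sensory ganglion (3.90) and forebrain (2.46) markers lie far to the right of the potassium channel median (0.23), and oligodendrocyte markers (-1.48) to the left.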

How the data were processed

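Total RNA of the dorsal horn was measured on 4 arrays, grouped by the sample titles. Per the file headers, the deposited scanner files hold the median pixel intensity of each spot and its local background per channel, the software's log10 ratio of Cy5 over Cy3, and other values, which are flags for spots well above background, saturated or outlying. The version of Agilent Feature Extraction is 10.7.1.1 in the headers, but 8.5.1.1 per the submitters' processing notes. The authors' value table holds log10 ratios, which matched the scanner's within 0.0050 by spot number (column medians -0.00277, 0, -0.00492 and -0.00316).

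The plan did not name the kind of signal, and median signals are what the files hold. With limma 3.58.1 (R 4.3.3), normexp with an offset of 50 corrected them for background, and log2 ratios normalised by loess within arrays, with the 4259 control spots per array at weight 0 and 1730 outlier spots left out. Replicate spots were then averaged per probe. Of 30367 probes, 25998 were kept, with a value on every array and Cy5 well above background on at least 2. Accessions were matched without version to the RefSeq gene table, which named 18758 probes. Probes without a symbol were counted by accession, so the shares of all genes include transcripts without a symbol. The probe with the highest mean signal stood for each gene (22817). Groups were compared, and the mean of both groups' ratios set against 0, with lmFit and eBayes (two-sided, residual df 2, prior df 4.74), Benjamini-Hochberg over all genes, threshold 0.05. For each channel alone, Aquantile and then quantile normalisation within the channel were used. The fit was tested on simulated data. Array number limits the precision.

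Members and lists were chosen with earlier results of these data known. Members named with values were 25 set in the plan, the 8 per direction with the smallest unadjusted p among those with groups apart, the 8 highest and 8 lowest called ratios, and others named after their values were seen (Kcnh2 among them). Promoters shown were those nearest the ends of the ratio order with 1 entry in the RefSeq table. A few genes are not reported here by name or in the plots that name genes, and the counts include them. Alternatives are described at the end.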

Additional observations from a re-analysis of the deposited data

Results flagged for a closer look

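For 5 of the 88 potassium channel genes (5.68%, beside 6.07% of all genes), both oxaliplatin ratios lay on one side of 0 and both vehicle ratios on the other. Each difference was tested in limma and none passed. Kcnj12 had the largest difference of group means, 0.56 in the log2 Cy5/Cy3 ratio (adjusted p 0.295), above 0 on the oxaliplatin and below 0 on the vehicle arrays. Kcna5 (0.32, adjusted p 0.323) and Kcnrg (0.23, adjusted p 0.398) lay the same way round. Kcnq1 differed by -0.51 (adjusted p 0.295) and Kcnk12, a tandem-pore channel, by -0.18 (adjusted p 0.507), with the oxaliplatin arrays below 0.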

How the results depend on the processing

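With 2 arrays per group the calls rest on few degrees of freedom. Leaving out an array leaves a lone array that is assumed to vary like the other group. Without oxaliplatin replicate 1 that lone array was oxaliplatin replicate 2, which stood apart in Cy3. No member was called for oxaliplatin against vehicle under any other setting but 1: without oxaliplatin replicate 1, 6 members passed (6.82%, beside 4.94% of all genes), Kcnab1 (-0.80), Kcne3 (-0.65), Kcne5 (0.65), Kcnk2 (-0.86), Kcnmb2 (-0.77) and Kcns2 (-0.64). Leaving out single arrays gave 0 to 6 calls. The median difference of the members, -0.024, was -0.078 with median centring, 0.0040 with the scanner's log ratio, 0.0042 with the authors' value table, 0.015 with scaled ratios, -0.065 in Cy5 alone, -0.0045 in Cy3 alone and -0.10 to 0.029 without single arrays. With the replicate number as a block, 0 members were called between the groups and 44 higher and 18 lower in Cy5 over Cy3. The labels give only a shared number, and same-numbered arrays deviated with a correlation of -0.22. Over the 13 settings, 41 to 49 members were called higher and 15 to 22 lower. Of the 46 called higher, 36 were called so in every setting that measured them and 10 were lost in some. Of the 19 called lower, 14 were called in every setting and 5 lost in some. Kcnd2 (0.11) and Kcnj3 (0.096) turned with median centring. Uncalled values also changed sign. With median centring the differences of Kcna1 (0.018), Kcnc1 (0.019), Kcnq3 (0.11), Kcnj11 (-0.014), Kcnk18 (-0.12) and Kcnma1 (0.095) and the ratio of Kcnk3 (0.099) turned. With the scanner's log ratio those of Kcnq3 (0.0029), Kcnq5 (7.7e-04), Kcnma1 (0.0077) and Kcnn4 (0.22) did, and with the authors' table Kcnq3 (0.0033), Kcnma1 (0.0083) and Kcnn4 (0.22). Scaled ratios turned Kcnq3 (0.14), Kcnq5 (0.038), Kcnj3 (-0.018), Kcnma1 (0.15), Kcnmb4 (0.22) and Kcnn4 (0.0098), and means over probes Kcnq3 (0.099) and Kcnn4 (0.011). Without single arrays, the difference ranged from -0.10 to 0.35 for Kcnk18, -0.11 to 0.084 for Kcnq3, -0.22 to 0.19 for Kcnma1 and -0.035 to 0.10 for Kcnj3, and the ratio of Kcnk3 from -0.055 to 0.054. The cause of these shifts was not tested. Signal over background limits the dim members, Kcna10 and Kcnj1 among them.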
